A study of Mus musculus with 12 samples.

Results

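The mitochondrial solute carriers of family 25 (SLC25) are described here in mouse liver. Members were all probe sets whose platform annotation gives exactly 1 gene symbol starting with Slc25a, with 1 further symbol not analysed here and, where a gene had several, the brightest one by its mean over the 12 arrays. This gave 38 genes of the 14860 that have a probe set with 1 symbol, each measured by 1 probe set. RNA of 12 livers was hybridised to Affymetrix GeneChip Mouse Exon 1.0 ST arrays, 1 liver on each. The first group was Tiparp -/- mice injected intraperitoneally with TCDD, the dioxin 2,3,7,8-tetrachlorodibenzo-p-dioxin, at 30 µg per kg, and the next was Tiparp -/- mice given corn oil, the vehicle. Tiparp +/+ (wild-type) mice given the same TCDD dose and Tiparp +/+ mice given corn oil formed the other groups. All were 8 weeks old, of the mixed background C57BL/6;129Sv, with 3 arrays labelled as biological replicates in each group. How the Tiparp allele was made, the sex of the mice and the time from dose to collection are not given in the labels. The series title asks how loss of Tiparp changes the response of the liver to dioxin.

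SLC25 carriers are membrane proteins, most of them in the mitochondrial inner membrane, that move metabolites between the cytosol and the matrix, usually by exchanging one solute for another. In hepatocytes they feed the urea cycle (ornithine and aspartate), fatty acid oxidation (acyl carnitines), fatty acid synthesis (citrate), haem and iron-sulphur cluster synthesis (iron and glycine), and the supply of nucleotides and cofactors such as coenzyme A and folate. TCDD is a ligand of the aryl hydrocarbon receptor (AhR), which binds DNA at elements with the core GCGTG, and Tiparp is an AhR target gene whose product, a mono-ADP-ribosyltransferase, represses AhR.

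Below, 5 carriers passed the test for a TCDD effect, all in Tiparp -/- liver. The 3 of them that rose have a promoter window in the RefSeq table (GRCm38.p6). The 250 bases before the annotated start are shown for these 3, which are grouped by that call alone. The sequences run 5′ to 3′ on the strand of the gene, and capitals mark the AhR core, 5 bases searched on both strands with no other motif. The windows are chr19:43674882-43675131 on the minus strand for Slc25a28, chr8:70212282-70212531 on the minus strand for Slc25a42 and chr19:5877572-5877821 on the plus strand for Slc25a45.
Slc25a28: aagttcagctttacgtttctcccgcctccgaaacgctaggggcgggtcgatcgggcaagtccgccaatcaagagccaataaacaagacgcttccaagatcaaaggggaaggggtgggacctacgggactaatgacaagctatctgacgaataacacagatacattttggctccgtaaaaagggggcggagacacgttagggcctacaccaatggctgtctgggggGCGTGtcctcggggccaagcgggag
Slc25a42: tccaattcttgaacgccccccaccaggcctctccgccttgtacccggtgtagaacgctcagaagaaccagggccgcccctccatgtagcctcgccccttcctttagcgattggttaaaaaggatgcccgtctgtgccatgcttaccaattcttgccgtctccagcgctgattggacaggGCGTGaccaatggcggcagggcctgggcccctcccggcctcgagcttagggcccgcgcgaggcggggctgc
Slc25a45: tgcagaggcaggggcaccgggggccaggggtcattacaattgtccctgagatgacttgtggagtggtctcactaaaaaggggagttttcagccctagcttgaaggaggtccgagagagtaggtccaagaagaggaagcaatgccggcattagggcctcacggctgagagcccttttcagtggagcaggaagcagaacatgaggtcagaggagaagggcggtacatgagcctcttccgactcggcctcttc
The core occurred 25 bases before the start of Slc25a28 and 71 bases before that of Slc25a42, and was not in the Slc25a45 window. At least 1 core was present in 28.2% of all 32851 windows of this length in the table and in 19 of the 39 windows that belong to 30 of the carriers. A match describes the letters only and shows no binding.

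Tiparp and Cyp1a1 checked the labels. Tiparp gave log2 values of 6.82, 6.70 and 6.91 in TCDD-treated Tiparp -/- livers and 7.10, 6.20 and 5.58 in corn oil Tiparp -/- livers, against 9.91, 10.82 and 10.84 in TCDD-treated wild-type livers and 7.42, 7.41 and 7.33 in corn oil wild-type livers. Cyp1a1, the standard AhR response gene, was between 13.19 and 13.34 on all 6 TCDD arrays, and read 8.84, 8.07 and 8.12 in corn oil Tiparp -/- livers against 5.47, 6.85 and 6.64 in corn oil wild-type livers. Under corn oil Cyp1a1 was thus higher in Tiparp -/- livers, the control group of the main comparison (2.02 ± 0.32, adjusted p = 0.0278). This call was lost without corn oil Tiparp -/- replicate 1 or 2 (adjusted p = 0.0664 and 0.0807) or corn oil wild-type replicate 2 (0.0797). Albumin (Alb), a hepatocyte marker, was between 13.88 and 13.97 on every array. Array medians were 6.91 to 7.00, and arrays of the same group correlated at 0.979 to 0.989. The 3 corn oil Tiparp -/- arrays had the highest scores on the first principal component (45.8, 36.7 and 17.2). The next highest score was 7.99, in corn oil wild-type replicate 3. The lowest were -30.5 and -22.4, in TCDD-treated Tiparp -/- replicates 1 and 3. Calls that rest on the corn oil Tiparp -/- arrays were recomputed without each, and the value is given where a call changed.

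The carriers were expressed over a wide span of array values, from 5.43 to 13.02 on the log2 scale, on which a difference of 1 is a 2-fold difference. These levels are compared only within a gene, since each probe set has its own binding strength. Of the 38 carriers, 29 were brighter than the median probe set. The median SD within a group was 0.14 in TCDD-treated and 0.16 in corn oil Tiparp -/- livers, and 0.15 in TCDD-treated and 0.12 in corn oil wild-type livers. Over all 12 livers 11 carriers spanned less than 0.5, and 13 spanned more than 1, led by Slc25a30 (2.16) and Slc25a25 (1.98). TCDD-treated Tiparp -/- livers had the lowest of the 4 group means for 24 of the 38 carriers, whereas this group was lowest for 33.7% of all probe sets. Among arrays, TCDD-treated Tiparp -/- replicate 1 was the lowest of the 12 for 10 carriers (17.1% of all probe sets) and corn oil Tiparp -/- replicate 1 for 8 (12% of all probe sets).

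**Figure D1:**
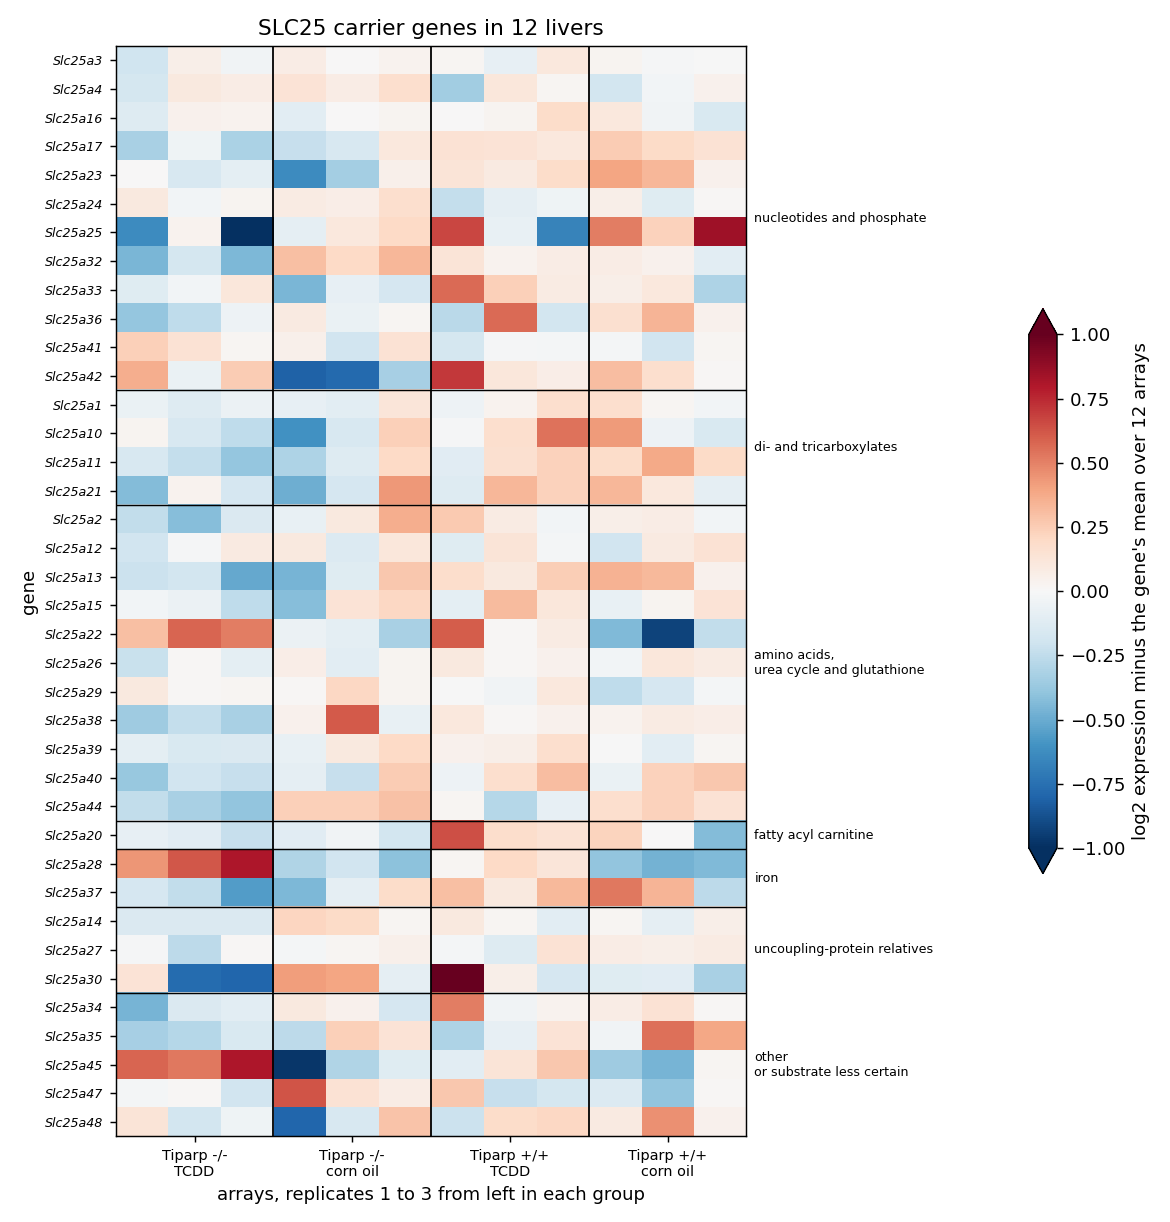
Each row is a carrier gene, grouped by role, and each column an array; colour gives the log2 value minus the mean of that gene over the 12 arrays. The 3 TCDD-treated Tiparp -/- arrays are at the left, where Slc25a28 and Slc25a45 are above their means and Slc25a32 and Slc25a44 below.

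For TCDD in Tiparp -/- liver 5 of the 38 carriers passed the test. That is 13.2%, beside 5.58% of all probe sets and 8.86% of those brighter than the median. Slc25a45, Slc25a28 and Slc25a42 rose 2.15-fold, 1.9-fold and 1.77-fold, and Slc25a32 and Slc25a44 fell 1.56-fold and 1.49-fold. In wild-type liver 0 of the 38 passed the test, beside 0.116% of all probe sets. The other 33 carriers, among them those for citrate (Slc25a1), ornithine (Slc25a15) and acyl carnitine (Slc25a20), did not pass in either genotype. In bulk liver RNA, fewer cells of a type and less RNA per cell cannot be told apart.

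The test was limma on all 12 arrays with Benjamini-Hochberg adjustment over all 23332 probe sets, with calls at an adjusted p under 0.05. It called 5.58% of all probe sets for TCDD in Tiparp -/- liver (2.21% higher and 3.37% lower), beside 8.86% of probe sets brighter than the median, and 13.2% of the carriers (3 higher and 2 lower). Over all probe sets the calls were 516 higher and 787 lower, and the split turned to 664 higher and 458 lower after a further quantile normalization and to 639 higher and 536 lower after median centring, with the same 5 carriers called each time. For TCDD in wild-type liver it called 0.116% of all probe sets. There the smallest adjusted p of a carrier was 0.123, and 3 carriers were higher and 1 was lower at an unadjusted p below 0.05 (10.5% of the carriers and 7.28% of all probe sets). The median TCDD difference over the carriers was -0.11 in Tiparp -/- liver (-0.05 over all probe sets) and 0.01 in wild-type liver (0.01 over all probe sets). In Tiparp -/- liver 4 carriers were higher and 7 lower with no overlap between TCDD and corn oil arrays (10.5% and 18.4%). Of all probe sets 7.92% and 15.6% were, and of those brighter than the median 9.03% and 22%. After quantile normalization 5 were higher and 5 lower (12.7% and 10.5% of all probe sets), and after median centring 5 and 6 (12.2% and 11.3%). In wild-type liver 3 were higher and 1 lower without overlap, where 7.74% and 6% of all probe sets were (9.74% and 6.75% of the brighter ones). When only the 6 Tiparp -/- arrays entered the fit, 1 of the 5 calls was kept, that of Slc25a28 (adjusted p = 0.041), and the other 4 had adjusted p-values of 0.0504 to 0.107.

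**Figure D2:**
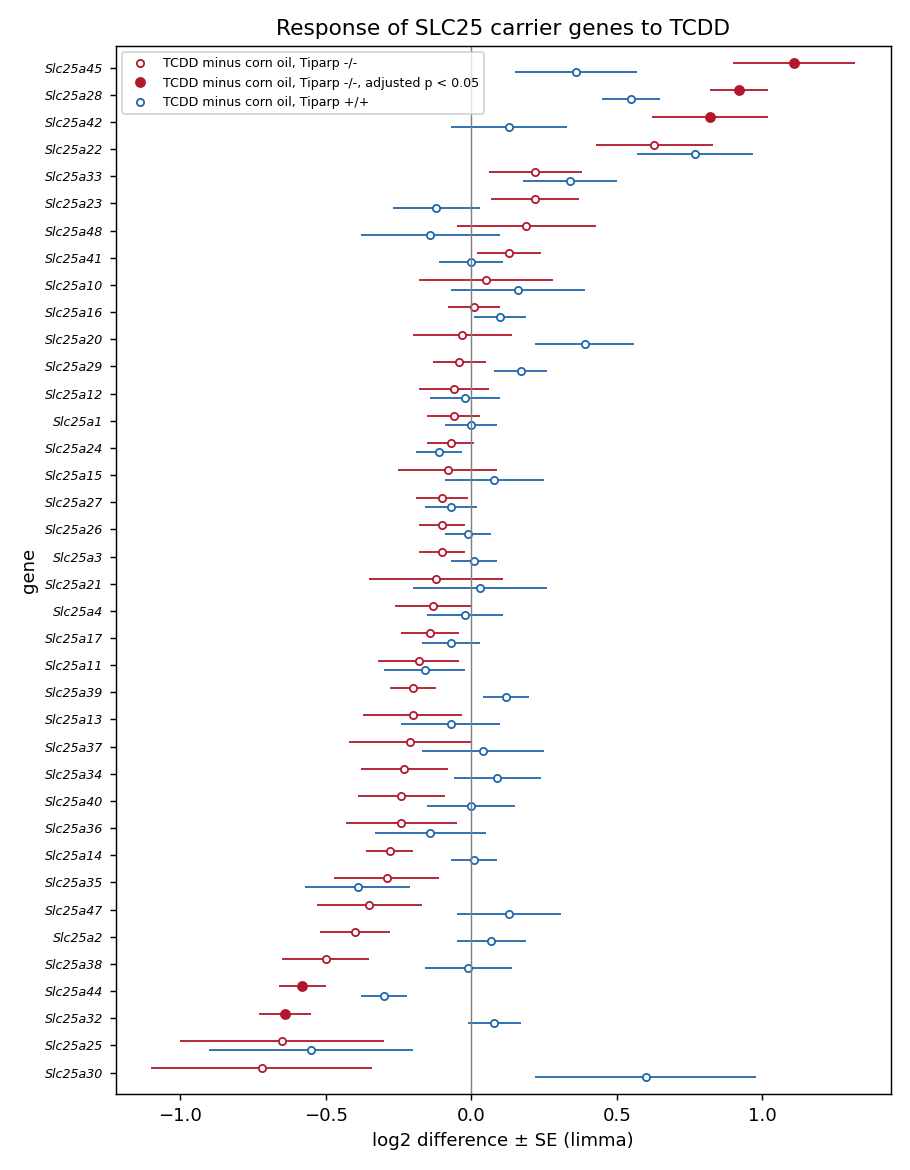
The log2 difference between TCDD and corn oil livers (limma, bars are the standard error) is shown for each carrier in Tiparp -/- liver (red, filled where called) and Tiparp +/+ liver (blue). The 5 filled points are those of Slc25a45, Slc25a28, Slc25a42, Slc25a44 and Slc25a32.

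The iron carriers were Slc25a28 and Slc25a37, the mitoferrins that bring iron into the matrix; Slc25a37 serves mainly developing red cells and Slc25a28 other cells. Slc25a28 read 9.72, 9.90 and 10.09 in TCDD-treated and 8.98, 9.09 and 8.87 in corn oil Tiparp -/- livers. It read 9.30, 9.48 and 9.40 in TCDD-treated and 8.89, 8.81 and 8.84 in corn oil wild-type livers. Every TCDD array thus lay above every corn oil array, and the 3 TCDD-treated Tiparp -/- arrays were the highest of all 12. The rise was 0.92 ± 0.10 (SE, adjusted p = 0.00113) in Tiparp -/- liver and stayed called when any 1 of its 6 arrays was left out. In wild-type liver the difference was 0.55 ± 0.10 (adjusted p = 0.123), and the difference between these effects, the interaction, was 0.38 ± 0.14 (adjusted p = 0.261). Slc25a28 was also higher in TCDD-treated Tiparp -/- than in corn oil wild-type livers (1.06, adjusted p = 0.000592). That difference uses no mean of the corn oil Tiparp -/- arrays, but its SE comes from the fit of all 12 arrays. It joins the effects of genotype and TCDD.
Slc25a37 read 8.69, 8.61 and 8.30 in TCDD-treated and 8.41, 8.77 and 9.04 in corn oil Tiparp -/- livers. In wild-type mice it read 9.16, 8.96 and 9.18 with TCDD and 9.39, 9.20 and 8.60 with corn oil. Its TCDD-treated Tiparp -/- arrays lay below all TCDD-treated wild-type arrays, with a difference of -0.57 ± 0.21 (adjusted p = 0.34).

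**Figure D3:**
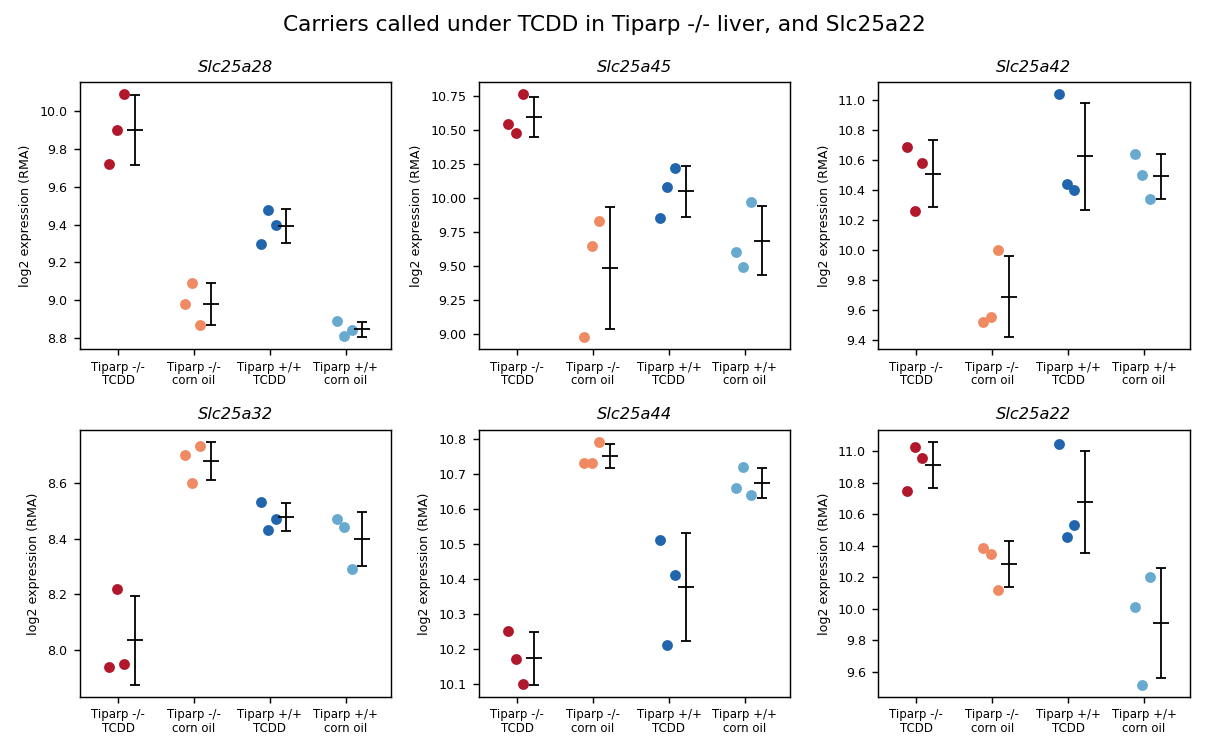
Array values (points) with the mean and SD of 3 arrays (bars) on the log2 scale are drawn for the 5 carriers called for TCDD in Tiparp -/- liver and for Slc25a22, in the order Tiparp -/- TCDD, Tiparp -/- corn oil, Tiparp +/+ TCDD and Tiparp +/+ corn oil. Slc25a32 lies lowest in TCDD-treated Tiparp -/- livers (7.94 to 8.22), and Slc25a42 lowest in corn oil Tiparp -/- livers (9.52 to 10.00).

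Nucleotide, cofactor and phosphate carriers were the largest set, with 12 members, of which 1 rose and 1 fell with TCDD in Tiparp -/- liver. Slc25a42, which imports coenzyme A, read 10.69, 10.26 and 10.58 in TCDD-treated and 9.52, 9.55 and 10.00 in corn oil Tiparp -/- livers. It read 11.04, 10.44 and 10.40 in TCDD-treated and 10.64, 10.50 and 10.34 in corn oil wild-type livers. The corn oil Tiparp -/- arrays were thus the lowest of all 12, while the other groups overlapped one another. The rise with TCDD in Tiparp -/- liver was 0.82 ± 0.20 (SE, adjusted p = 0.0403), beside 0.13 ± 0.20 in wild-type liver (adjusted p = 0.948) and an interaction of 0.69 ± 0.28 (adjusted p = 0.29). Against corn oil wild-type livers, TCDD-treated Tiparp -/- livers differed by 0.02 (adjusted p = 0.978). The call was also lost without TCDD-treated replicate 1 or 3 (adjusted p = 0.134 and 0.125) and without corn oil replicate 1 or 2 (adjusted p = 0.109 and 0.126).

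Slc25a32, which imports folate or flavin adenine dinucleotide, read 7.94, 8.22 and 7.95 in TCDD-treated and 8.70, 8.60 and 8.73 in corn oil Tiparp -/- livers. In wild-type livers it read 8.53, 8.43 and 8.47 with TCDD and 8.47, 8.44 and 8.29 with corn oil. The TCDD-treated Tiparp -/- arrays were the lowest of the 12 and the corn oil Tiparp -/- arrays the highest. It fell by 0.64 ± 0.09 in Tiparp -/- liver (adjusted p = 0.0048), a call kept without any 1 of the 6 arrays, and differed by 0.08 ± 0.09 in wild-type liver (adjusted p = 0.93). The interaction of -0.72 ± 0.13 had the smallest adjusted p of any carrier (0.073) and did not pass. It passed without corn oil Tiparp -/- replicate 3 (adjusted p = 0.0433) or TCDD-treated Tiparp -/- replicate 2 (0.0368). Set against corn oil wild-type livers, TCDD-treated Tiparp -/- livers differed by -0.36 (adjusted p = 0.0767).

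The ATP-Mg/phosphate carriers, which adjust the matrix adenine nucleotide pool, are Slc25a23, Slc25a24, Slc25a25 and Slc25a41. Slc25a25 read 8.54, 9.21 and 8.04 in TCDD-treated and 9.08, 9.28 and 9.37 in corn oil Tiparp -/- livers. It read 9.84, 9.10 and 8.50 in TCDD-treated and 9.68, 9.40 and 10.02 in corn oil wild-type livers. Both TCDD groups were spread widely (SD 0.59 in Tiparp -/- and 0.67 in wild-type livers), and each overlapped its corn oil group. The TCDD differences were -0.65 ± 0.35 in Tiparp -/- and -0.55 ± 0.35 in wild-type liver (adjusted p = 0.318 and 0.801).
Slc25a23 read 11.59, 11.43 and 11.49 in TCDD-treated and 10.96, 11.25 and 11.64 in corn oil Tiparp -/- livers. It read 11.72, 11.68 and 11.77 in TCDD-treated and 11.98, 11.92 and 11.63 in corn oil wild-type livers. Under TCDD the Tiparp -/- arrays lay below the wild-type arrays, and under corn oil only replicate 3 of Tiparp -/- reached the wild-type range. Slc25a24 varied little, between 6.36 and 6.77, and Slc25a41 between 6.37 and 6.80. Under TCDD both were higher in Tiparp -/- than in wild-type livers without overlap, by 0.16 ± 0.08 and 0.20 ± 0.11, and neither passed the test.

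The phosphate carrier Slc25a3 and the ADP/ATP carrier Slc25a4 serve ATP synthesis, and another ADP/ATP carrier, Slc25a5, was not analysed here. Slc25a3 stayed between 12.60 and 12.91 and Slc25a4 between 6.61 and 7.12 on all arrays, and neither passed in any comparison. Slc25a17, the peroxisomal carrier of coenzyme A and related cofactors, lay between 9.98 and 10.56. Its Tiparp -/- arrays were below the wild-type arrays under TCDD (-0.36 ± 0.10, adjusted p = 0.241) and under corn oil (-0.29 ± 0.10, adjusted p = 0.162). Slc25a16, placed with the coenzyme A carriers, ran from 10.86 to 11.20. The pyrimidine nucleotide carriers Slc25a33 and Slc25a36 ran from 7.35 to 8.37 and from 5.43 to 6.38.

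Amino acid, urea cycle and glutathione carriers had 11 members, of which 10 were below 0 for TCDD in Tiparp -/- liver and 5 in wild-type liver, while 1 passed the test, in Tiparp -/- liver. Of all probe sets 58% were below 0 for TCDD in Tiparp -/- liver (64.3% of the brighter ones) and 45.9% in wild-type liver. The interaction was below 0 for all 11, as it was for 57.9% of all probe sets and 63.2% of the brighter ones, and 0 of the 11 passed. Slc25a44, which imports branched-chain amino acids, read 10.25, 10.17 and 10.10 in TCDD-treated and 10.73, 10.73 and 10.79 in corn oil Tiparp -/- livers. It read 10.51, 10.21 and 10.41 in TCDD-treated and 10.66, 10.72 and 10.64 in corn oil wild-type livers. In each genotype every TCDD array lay below every corn oil array. It fell by 0.58 ± 0.08 in Tiparp -/- liver (SE, adjusted p = 0.00531), a call kept in every fit without 1 of the 6 arrays. TCDD-treated Tiparp -/- livers were also below corn oil wild-type livers (-0.50, adjusted p = 0.0152). The wild-type difference was -0.30 ± 0.08 (adjusted p = 0.429), and the interaction -0.28 ± 0.12 (adjusted p = 0.315).

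Slc25a22, a glutamate carrier, read 10.75, 11.03 and 10.96 in TCDD-treated and 10.39, 10.35 and 10.12 in corn oil Tiparp -/- livers. It read 11.05, 10.46 and 10.53 in TCDD-treated and 10.01, 9.52 and 10.20 in corn oil wild-type livers. TCDD and corn oil arrays did not overlap in either genotype. The difference was 0.63 ± 0.20 in Tiparp -/- (adjusted p = 0.0938) and 0.77 ± 0.20 in wild-type liver (adjusted p = 0.33), the largest positive one among the carriers in wild-type mice, and neither passed. TCDD-treated Tiparp -/- livers exceeded corn oil wild-type livers by 1.00 (adjusted p = 0.0278).

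The aspartate/glutamate carriers Slc25a12 and Slc25a13 (citrin) supply aspartate to the cytosol, and Slc25a13 is the main liver form. Slc25a13 read 10.61, 10.64 and 10.31 in TCDD-treated and 10.36, 10.70 and 11.09 in corn oil Tiparp -/- livers. It read 11.00, 10.92 and 11.07 in TCDD-treated and 11.17, 11.15 and 10.87 in corn oil wild-type livers. TCDD-treated Tiparp -/- arrays all lay below the wild-type arrays of either treatment, and corn oil Tiparp -/- arrays overlapped them. Under TCDD the genotype difference was -0.48 ± 0.17 (adjusted p = 0.321). Slc25a12 kept between 9.65 and 9.98.

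The ornithine carriers, which return ornithine to the matrix for the urea cycle, are Slc25a15 and Slc25a2. Slc25a15 read 11.31, 11.28 and 11.08 in TCDD-treated and 10.91, 11.47 and 11.54 in corn oil Tiparp -/- livers. It read 11.24, 11.65 and 11.45 in TCDD-treated and 11.26, 11.36 and 11.47 in corn oil wild-type livers. All groups overlapped, and the TCDD difference was -0.08 ± 0.17 in Tiparp -/- liver, with a 95% interval of -0.45 to 0.29. Slc25a2 was dim, between 5.43 and 6.22. Its TCDD-treated Tiparp -/- arrays were the lowest of all 12, with a TCDD difference of -0.40 ± 0.12 (adjusted p = 0.0912).

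Slc25a38, which brings glycine into the matrix for haem synthesis, read 9.36, 9.48 and 9.39 in TCDD-treated and 9.76, 10.33 and 9.64 in corn oil Tiparp -/- livers. In wild-type livers it read 9.82, 9.73 and 9.76 with TCDD and 9.75, 9.80 and 9.78 with corn oil. The TCDD-treated Tiparp -/- arrays were again below all others, and corn oil Tiparp -/- replicate 2 was the single high one. The TCDD difference of -0.50 ± 0.15 in Tiparp -/- liver had an adjusted p of 0.0782 and passed without corn oil replicate 3 (-0.64, adjusted p = 0.0257). The glutathione carriers Slc25a39 and Slc25a40 ran from 11.89 to 12.24 and from 6.52 to 7.21. Both were lower in Tiparp -/- than in wild-type livers under TCDD without overlap, with differences of -0.22 ± 0.08 and -0.41 ± 0.15, and neither passed. The S-adenosylmethionine carrier Slc25a26 (7.40 to 7.74) and the basic amino acid carrier Slc25a29 (7.04 to 7.50) passed in no comparison.

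The 4 di- and tricarboxylate carriers exchange citrate, malate, oxoglutarate and related acids, and 0 of them passed in any comparison. Slc25a1, the citrate carrier that supplies carbon for fatty acid synthesis, read 11.64, 11.58 and 11.65 in TCDD-treated and 11.63, 11.60 and 11.83 in corn oil Tiparp -/- livers. It read 11.66, 11.74 and 11.88 in TCDD-treated and 11.88, 11.73 and 11.68 in corn oil wild-type livers. It had the smallest span of the carriers (0.3), and its TCDD difference was -0.06 ± 0.09 in Tiparp -/- liver, with a 95% interval of -0.27 to 0.14.
Slc25a10, the dicarboxylate carrier, read 10.66, 10.47 and 10.38 in TCDD-treated and 10.03, 10.47 and 10.87 in corn oil Tiparp -/- livers. It read 10.62, 10.80 and 11.18 in TCDD-treated and 11.06, 10.58 and 10.48 in corn oil wild-type livers. Its groups all overlapped.
Slc25a11, the oxoglutarate carrier of the malate-aspartate shuttle, ran from 10.45 to 11.22 and was lower in Tiparp -/- than in wild-type livers under TCDD without overlap (-0.36 ± 0.14, adjusted p = 0.353). Slc25a21, the oxodicarboxylate carrier, ran from 8.11 to 9.03.

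Slc25a20 exchanges acyl carnitines for carnitine and so admits long-chain fatty acids to oxidation. It read 10.45, 10.42 and 10.30 in TCDD-treated and 10.42, 10.50 and 10.35 in corn oil Tiparp -/- livers. It read 11.18, 10.71 and 10.68 in TCDD-treated and 10.76, 10.54 and 10.10 in corn oil wild-type livers. The Tiparp -/- groups nearly coincided, and the TCDD-treated wild-type arrays lay above both. The TCDD difference was -0.03 ± 0.17 in Tiparp -/- and 0.39 ± 0.17 in wild-type liver (adjusted p = 0.938 and 0.674), and under TCDD the genotype difference was -0.47 ± 0.17 (adjusted p = 0.331). The other measured genes of this shuttle, Cpt1a, Cpt2 and Crat, gave genotype differences under TCDD of -0.22, -0.30 and -1.10, with adjusted p-values of 0.404, 0.349 and 0.352.

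The uncoupling-protein relatives are Slc25a14, Slc25a27 and Slc25a30, the last known as the kidney mitochondrial carrier. Slc25a30 read 9.95, 9.04 and 9.02 in TCDD-treated and 10.23, 10.21 and 9.72 in corn oil Tiparp -/- livers. It read 11.18, 9.87 and 9.64 in TCDD-treated and 9.69, 9.70 and 9.49 in corn oil wild-type livers. Within each TCDD group replicate 1 was the high array and the other two lay close together. The TCDD difference was -0.72 ± 0.38 in Tiparp -/- and 0.60 ± 0.38 in wild-type liver (adjusted p = 0.304 and 0.8), and the interaction of -1.32 ± 0.53 was the largest in size of any carrier (adjusted p = 0.289). Slc25a14 was dim, 6.08 to 6.44, with all 3 TCDD-treated Tiparp -/- arrays at 6.08, the lowest of the 12. Its TCDD difference was -0.28 ± 0.08 in Tiparp -/- liver (adjusted p = 0.0727), and it passed without corn oil replicate 3 (-0.35, adjusted p = 0.0348). Slc25a27 ran from 6.11 to 6.51.

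Of the 5 carriers with a less certain substrate 1 passed. Slc25a45 read 10.54, 10.48 and 10.76 in TCDD-treated and 8.98, 9.65 and 9.83 in corn oil Tiparp -/- livers. It read 9.85, 10.08 and 10.22 in TCDD-treated and 9.60, 9.49 and 9.97 in corn oil wild-type livers. The TCDD-treated Tiparp -/- arrays were the highest of the 12, and the wild-type groups overlapped. The rise was 1.11 ± 0.21 in Tiparp -/- liver (SE, adjusted p = 0.0176), the largest of the carriers, beside 0.36 ± 0.21 in wild-type liver (adjusted p = 0.785) and an interaction of 0.74 ± 0.30 (adjusted p = 0.287). Without TCDD-treated replicate 1 or 3 the adjusted p was 0.0518 or 0.0724, and without corn oil replicate 1, the lowest array, the rise was 0.85 (adjusted p = 0.0291). TCDD-treated Tiparp -/- livers differed from corn oil wild-type livers by 0.91 (adjusted p = 0.0583).

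Slc25a47, a carrier made mainly in liver, read 12.37, 12.40 and 12.20 in TCDD-treated and 13.02, 12.53 and 12.46 in corn oil Tiparp -/- livers. It read 12.66, 12.16 and 12.21 in TCDD-treated and 12.25, 11.99 and 12.40 in corn oil wild-type livers. The corn oil Tiparp -/- arrays lay above all TCDD-treated Tiparp -/- and all corn oil wild-type arrays. The TCDD difference was -0.35 ± 0.18 in Tiparp -/- liver (adjusted p = 0.295), and the genotype difference under corn oil was 0.46 ± 0.18 (adjusted p = 0.199). Without corn oil Tiparp -/- replicate 1, the highest array, these were -0.17 and 0.28. Slc25a35 read 6.51, 6.56 and 6.69 in TCDD-treated and 6.58, 7.08 and 6.98 in corn oil Tiparp -/- livers. It read 6.53, 6.76 and 6.98 in TCDD-treated and 6.81, 7.39 and 7.23 in corn oil wild-type livers. Its groups overlapped within each genotype. Slc25a34 ran from 6.23 to 7.21 and Slc25a48 from 6.92 to 8.17.

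**Figure D4:**
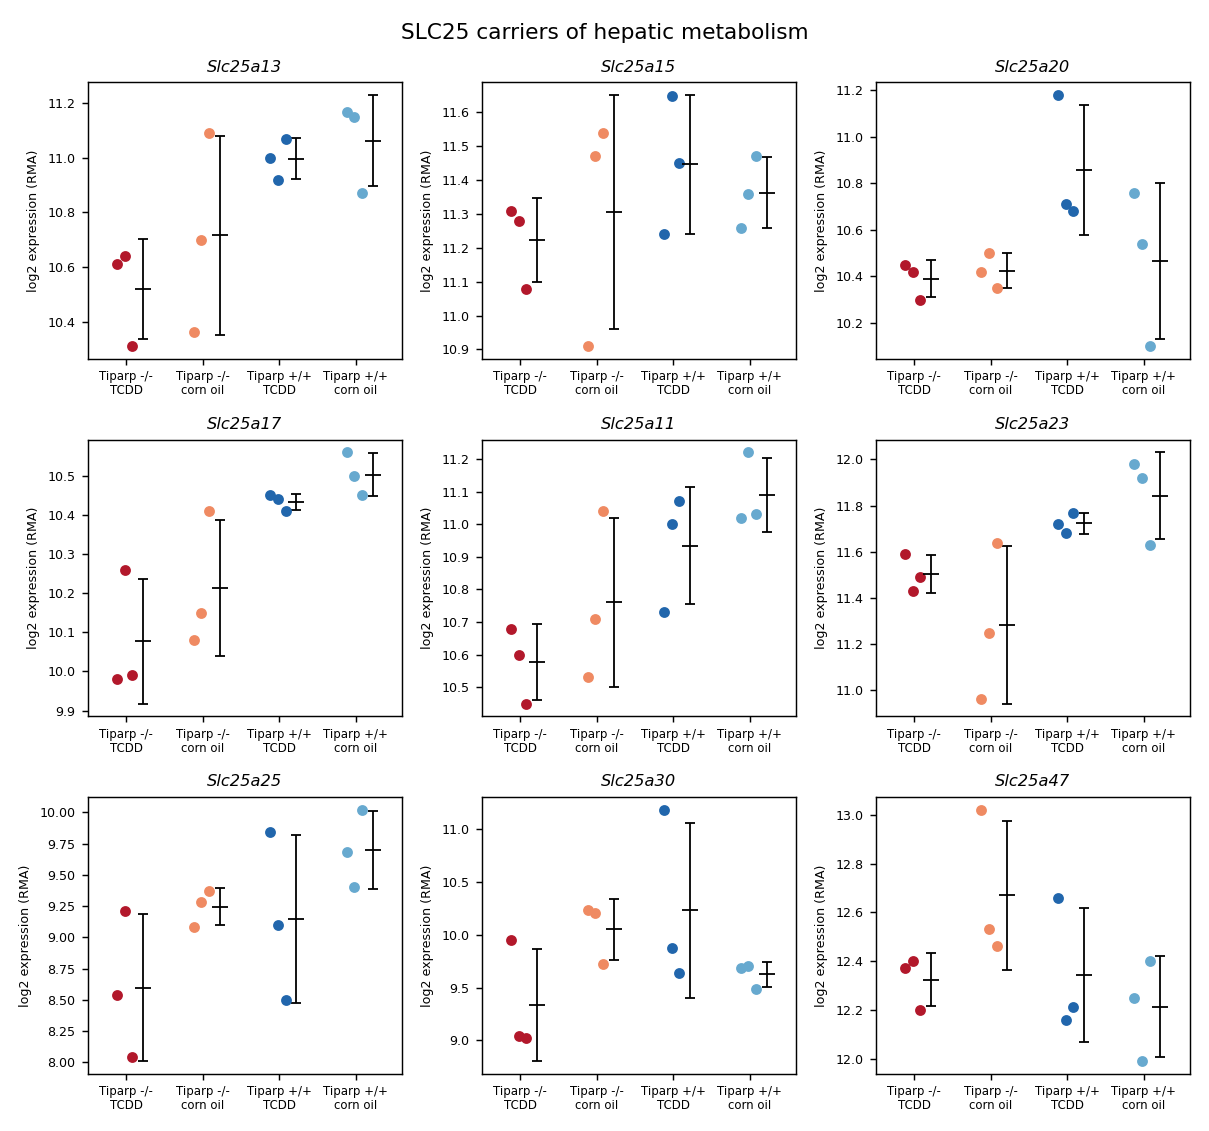
Array values (points) with the mean and SD of 3 arrays (bars) on the log2 scale are drawn for 9 carriers of hepatic metabolism or high spread, with TCDD-treated Tiparp -/- livers at the left and corn oil Tiparp +/+ livers at the right. Slc25a13, Slc25a17, Slc25a11, Slc25a20 and Slc25a23 are lower in TCDD-treated Tiparp -/- than in TCDD-treated Tiparp +/+ livers, with no overlap. Their limma adjusted p-values are 0.241 to 0.626.

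Between genotypes, carriers lay more often lower than higher in Tiparp -/- livers after TCDD, but none passed the test. Under TCDD 31 of the 38 were lower, as were 54.5% of all probe sets and 65.2% of those brighter than the median. Of these 31 carriers 14 did not overlap with wild-type: Slc25a1, Slc25a2, Slc25a11, Slc25a13, Slc25a14, Slc25a17, Slc25a20, Slc25a23, Slc25a32, Slc25a34, Slc25a37, Slc25a38, Slc25a39 and Slc25a40. Another 4 were higher without overlap: Slc25a24, Slc25a28, Slc25a41 and Slc25a45. Of all probe sets 11.7% were lower and 6.63% higher without overlap, and of the probe sets brighter than the median 18.2% were lower. The median genotype difference was -0.21 over the carriers, -0.03 over all probe sets and -0.07 over the brighter ones. Limma called 0 carriers here and 0.24% of all probe sets, with a smallest adjusted p of 0.094, for Slc25a28 (0.51 ± 0.10). At an unadjusted p below 0.05, 2 carriers were higher and 13 lower (39.5% of the carriers, 11.9% of all probe sets and 16.2% of the brighter ones). Slc25a28 passed without TCDD-treated Tiparp -/- replicate 1 (0.60, adjusted p = 0.0498). Slc25a30 had the largest negative difference (-0.89 ± 0.38, adjusted p = 0.391) and Slc25a45 the largest positive one (0.54 ± 0.21, adjusted p = 0.352). After quantile normalization 12 carriers were lower without overlap (8.89% of all probe sets), and after median centring 15 were (13% of all probe sets).

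Under corn oil the direction of the genotype difference was more mixed across the family. Of the 38 carriers 21 were lower and 16 higher in Tiparp -/- livers, where 41.7% of all probe sets and 43.8% of the brighter ones were lower. The median difference was -0.06 over the carriers (0.03 over all probe sets). Without overlap 7 were higher and 4 lower, where 13.5% and 8.36% of all probe sets were (17.6% and 12.2% of the brighter ones). Limma called 1.96% of all probe sets and 0 carriers, with 3 higher and 4 lower at an unadjusted p below 0.05 (18.4% of the carriers, 19.3% of all probe sets and 28.2% of the brighter ones). The smallest adjusted p was that of Slc25a42 (-0.80 ± 0.20, adjusted p = 0.0693), whose low corn oil Tiparp -/- arrays are given above, followed by Slc25a23 (-0.56 ± 0.15, adjusted p = 0.0903). Without corn oil Tiparp -/- replicate 3 the test called Slc25a42 (-0.96), Slc25a23 (-0.74) and Slc25a17 (-0.39), with adjusted p-values of 0.0254, 0.0118 and 0.0445. After quantile normalization 3 carriers were higher and 7 lower without overlap (10.2% and 11.6% of all probe sets). After median centring 3 were higher and 6 lower (9.93% and 11.7%). The direction of this count thus depends on the scaling, for the carriers as for all probe sets.

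**Figure D5:**
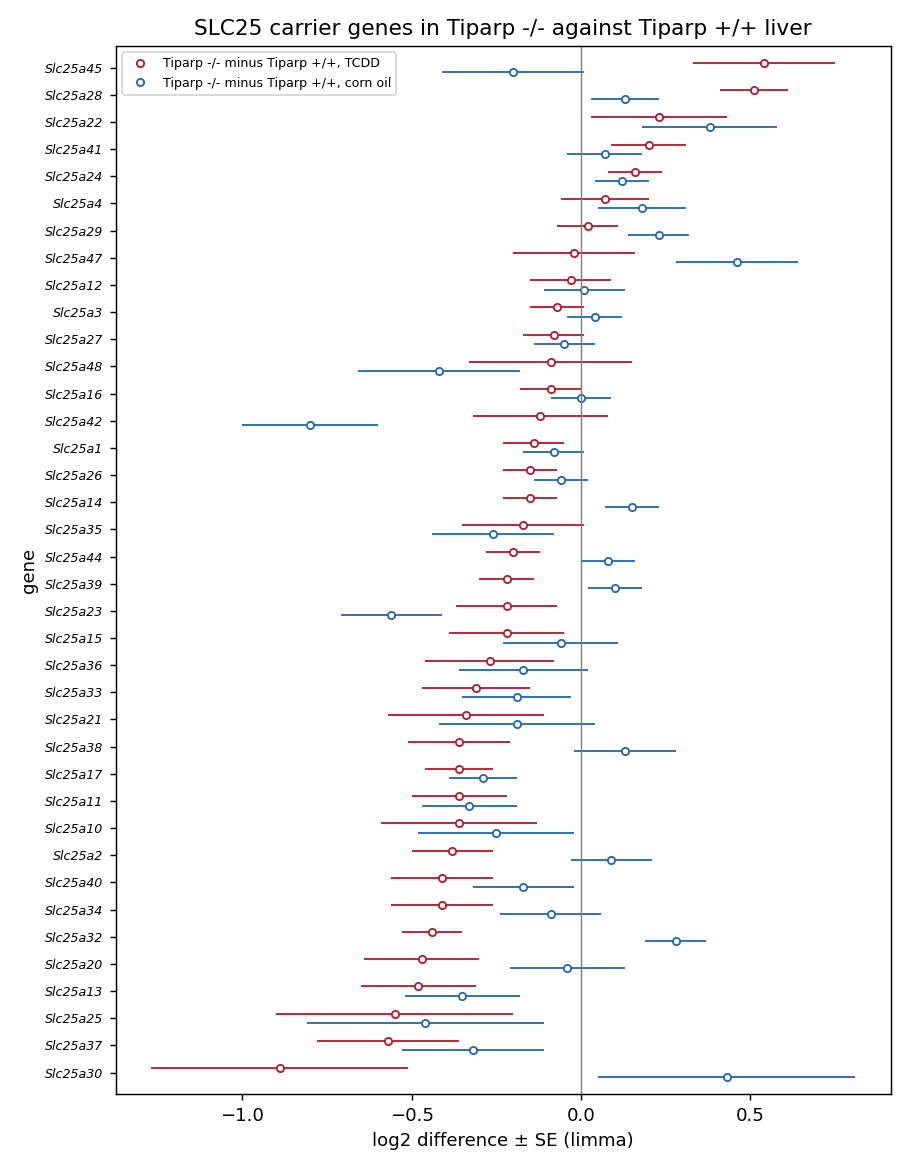
The log2 difference between Tiparp -/- and Tiparp +/+ livers (limma, bars are the standard error) is shown for each carrier under TCDD (red) and corn oil (blue). Most red points lie below 0 (31 of 38, beside 54.5% of all probe sets and 65.2% of those brighter than the median). No point passed the test, and Slc25a42 has the largest negative difference under corn oil (-0.80).

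The interaction asks whether the TCDD difference itself was unlike in the genotypes. Limma called 0.159% of all probe sets and 0 carriers, with 3 above and 7 below 0 at an unadjusted p below 0.05 (26.3% of the carriers, 14.8% of all probe sets and 21.1% of the brighter ones). Of the 38 carriers 30 were below 0, as were 57.9% of all probe sets and 63.2% of the brighter ones. The median over the carriers was -0.11 (-0.05 over all probe sets). Quantile normalization left 24 below 0 with a median of -0.04, and median centring 27 with -0.07. Thus no carrier, the called ones included, was shown to respond differently to TCDD in Tiparp -/- and wild-type liver.

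Among 29 measured of 42 listed genes that work with these carriers, 1 rose and 2 fell with TCDD in Tiparp -/- liver. These calls are 10.3% of the 29, beside 5.58% of all probe sets and 8.86% of the brighter ones. Nags, which makes the activator of the first urea cycle enzyme, read 11.26, 11.28 and 11.37 in TCDD-treated and 10.65, 10.76 and 10.30 in corn oil Tiparp -/- livers and rose by 0.73 ± 0.11 (adjusted p = 0.00512). Got1, the cytosolic aspartate aminotransferase of the malate-aspartate shuttle, read 12.03, 12.26 and 11.78 against 12.69, 12.75 and 12.73 and fell by 0.70 ± 0.16 (adjusted p = 0.036). Mdh2, the matrix malate dehydrogenase of the same shuttle, read 11.88, 11.83 and 11.76 against 12.04, 12.19 and 12.27 and fell by 0.34 ± 0.08 (adjusted p = 0.0312). Got1 was also higher in corn oil Tiparp -/- than in corn oil wild-type livers (0.79 ± 0.16, adjusted p = 0.0456), the single call among these genes for genotype. That call is 3.45% of the 29, beside 1.96% of all probe sets and 3.36% of the brighter ones. The rise of Nags passed without any 1 of the 6 arrays. The fall of Got1 passed only without TCDD-treated replicate 2 (adjusted p of 0.0562 to 0.125 without another array), that of Mdh2 only without corn oil replicate 1 (0.0569 to 0.116), and the genotype call of Got1 only without corn oil Tiparp -/- replicate 3 (0.09 to 0.141). In wild-type liver, under TCDD between genotypes and for the interaction 0 of the 29 passed. At an unadjusted p below 0.05 there were 2 higher and 1 lower for TCDD in wild-type liver (10.3%, beside 7.28% of all probe sets and 8.91% of the brighter ones). For genotype under TCDD 1 was higher and 5 lower (20.7%, beside 11.9% and 16.2%). The interaction had 1 above and 5 below 0 (20.7%, beside 14.8% and 21.1%). The 6 regulators of mitochondrial biogenesis and 5 protein import genes had 0 calls in all 5 comparisons.

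Some markers of other cells were called for TCDD in Tiparp -/- liver, and Marco also differed between the corn oil groups. All 6 endothelial markers were below 0, and 4 of them were called (Stab1, Stab2, Tek and Oit3), where 5.58% of all probe sets were called. The summed signal of the 6 on the log2 scale ran from 11.55 to 11.69 in TCDD-treated and 12.12 to 12.31 in corn oil Tiparp -/- livers. In wild-type livers the sums were 11.54 to 11.62 with TCDD and 11.82 to 12.06 with corn oil. There all 6 were lower with TCDD without overlap (6% of all probe sets), and 0 were called. The Kupffer cell marker Marco, 1 of 6 measured, fell by 1.05 ± 0.20 (adjusted p = 0.0165). Of these 6, 4 were below 0 and 2 above (Clec4f 0.05 and Cd5l 0.04). Their sums were 12.02 to 12.23 in TCDD-treated and 11.96 to 12.57 in corn oil Tiparp -/- livers. Col1a1, 1 of 5 stellate cell markers, rose by 0.35 ± 0.09 (adjusted p = 0.0471). Of these 5, 3 were above 0 and 2 below (Des -0.11 and Dcn -0.13). Marco read 7.68, 8.25 and 7.59 in corn oil Tiparp -/- livers against 6.43, 6.63 and 7.07 in corn oil wild-type livers, and was higher there (1.13 ± 0.20, adjusted p = 0.0351). Without 1 array the TCDD calls of Stab1 and Stab2 held throughout. Those of Tek (adjusted p of 0.0694 to 0.102), Oit3 (0.0502 to 0.103) and Col1a1 (0.0661 to 0.153) were lost in 3, 4 and 5 of 6 fits, that of Marco without TCDD-treated replicate 1 (0.0602), and its genotype call in 4 of 6 fits (0.0669 to 0.152). Clock genes differed in both directions. For TCDD in Tiparp -/- liver 7 of 8 measured had an unadjusted p below 0.05 (22.1% of all probe sets), 3 above and 4 below 0. Arntl (1.57), Npas2 (1.36) and Clock (0.41) were the higher ones, Dbp (-2.06), Nr1d2 (-1.01), Tef (-0.87) and Per1 (-1.81) the lower ones, and only Per1 passed after adjustment (adjusted p = 0.0112). Between the corn oil groups 3 were higher and 3 lower in Tiparp -/- livers at that unadjusted p, and 0 passed. Their sums, over members of opposite direction, ran from 11.69 to 11.95 in TCDD-treated and 11.87 to 12.67 in corn oil Tiparp -/- livers, and from 11.99 to 12.54 in TCDD-treated and 11.95 to 11.96 in corn oil wild-type livers. The sum of 5 hepatocyte markers was 15.89 to 16.08 on all arrays. The part of these shifts in the carrier differences was not tested.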

How the data were processed

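Values are log2 expression values of probe sets, made by RMA in Affymetrix Expression Console and deposited by the authors. These tools and the build mm9 are named per the submitters' processing notes, but the sources used here give neither their versions nor the probe set level. They were used with no further scaling or filter. Platform annotation named 14996 of 23332 probe sets with 1 symbol, 1019 with several and 7317 with none. By gene number all 38 carriers kept their symbol in RefSeq. Another 2 probe sets list a carrier among several symbols and were not used. The arrays held 0 identical pairs.

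Limma 3.58.1 (R 4.3.3) fitted 1 mean per group over the 12 arrays, with 5 contrasts, the default empirical Bayes step (8 residual and 2.19 prior degrees of freedom), and Benjamini-Hochberg adjustment over all probe sets within a contrast; a call was an adjusted p below 0.05. The number of arrays limits the precision. The code was tested on simulated data. Every carrier is named with its level. Array values are given for called carriers, the 3 largest rises and 3 largest falls of each contrast, and Slc25a1, Slc25a10, Slc25a13, Slc25a15, Slc25a20, Slc25a25 and Slc25a47. The members, roles, gene lists and tests were chosen with earlier results of these data known. Carrier calls, their counts and the named carrier differences were recomputed with robust or trended empirical Bayes, the compared groups alone, a replicate block, quantile normalization, median centring, a filter on dim probe sets, array weights, probe sets of 1 symbol alone, corn oil wild-type livers as control for TCDD-treated Tiparp -/- livers, and leaving out each array. Brighter probe sets are those with a mean above the median over probe sets. Other called genes were refitted only without each array. These refits, and counts after each scaling and for brighter probe sets, were added after the data had been seen. Promoter windows are RefSeq GRCm38.p6, a build other than that of the notes.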

Additional observations from a re-analysis of the deposited data

Results flagged for a closer look

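In Slc25a32 and Slc25a39 every array moved one way in one setting and the opposite way in the other, so the difference between settings was tested. Slc25a32 had an interaction of -0.72 (adjusted p = 0.073, limma): every Tiparp -/- array was below every wild-type array under TCDD and above every one under corn oil. Slc25a39, a glutathione carrier, had an interaction of -0.32 (adjusted p = 0.229): with TCDD it was lower in Tiparp -/- liver (11.95, 11.89 and 11.90 in TCDD-treated against 11.97, 12.14 and 12.24 in corn oil livers) and higher in wild-type liver (12.09, 12.10 and 12.21 in TCDD-treated against 12.04, 11.94 and 12.06 in corn oil livers). Neither interaction passed the test.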

How the results depend on the processing

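The 5 carriers called for TCDD in Tiparp -/- liver were the same under robust and trended empirical Bayes, quantile normalization, median centring and the filter on dim probe sets. The count was 6 with probe sets of 1 symbol (adding Slc25a14), 7 with array weights (adding Slc25a14 and Slc25a38) and 1 with only the compared groups. Against corn oil wild-type livers it was 3, with Slc25a28 and Slc25a44 kept and Slc25a22 added. It was 3 to 7 when an array was left out, and 3 without TCDD-treated replicate 1 or 3, which lost Slc25a42 and Slc25a45. With the replicate block it was 4, losing Slc25a42 (adjusted p = 0.0539); same-numbered arrays deviated together little (correlations of -0.208 to 0.114), and the block changed no other count. The wild-type count stayed at 0 throughout, also with each array left out (0 to 0). For genotype under TCDD the count of 0 became 1 after quantile normalization and with probe sets of 1 symbol, 2 with array weights, and 0 to 1 without an array. For genotype under corn oil it became 1 with the filter on dim probe sets and with probe sets of 1 symbol, 2 with array weights, and 0 to 3 without an array. For the interaction it became 1 (Slc25a32) with that filter, with probe sets of 1 symbol and with array weights, and 0 to 1 without an array. Fewer probe sets were tested under the filter and with 1 symbol; for the others the cause was not tested. Differences that changed sign were small. For TCDD in Tiparp -/- liver Slc25a20 was 0.02 after quantile normalization and after median centring, and -0.07 to 0.01 without 1 array (0.01 without corn oil replicate 2 or TCDD-treated replicate 3), Slc25a15 ran from -0.28 to 0.03 without 1 array (0.03 without corn oil replicate 3), and Slc25a47 was 0.11 against corn oil wild-type livers. For TCDD in wild-type liver Slc25a42 ran from -0.07 to 0.25 without 1 array (-0.07 without TCDD-treated replicate 1). For genotype under corn oil Slc25a45 ran from -0.37 to 0.05 without 1 array (0.05 without Tiparp -/- replicate 1). In all, 144 of 3078 recomputed carrier differences changed sign, 0 of them called. With 3 arrays in a group, differences within about the spread of arrays were not detectable here, and some beyond it also failed to pass. For TCDD in wild-type liver Slc25a28 differed by 0.55, with SDs of 0.09 in TCDD-treated and 0.04 in corn oil livers (limma, adjusted p = 0.123). Its unadjusted limma p there, 0.000294, was below those of Slc25a45 (0.000367) and Slc25a42 (0.00186), which were called in Tiparp -/- liver. The adjustment depends on all probe sets of a contrast, of which 5.58% were called in Tiparp -/- and 0.116% in wild-type liver. The counts of 5 and 0 calls thus do not compare the strength of the TCDD effect between genotypes.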
